A study of Homo sapiens with 32 samples.

Results

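The comparison described here set the m6A sites of unstressed human HEK293T cells carrying a phosphomimetic form of the translation factor eIF3d against those of cells with wild-type eIF3d. Members were chosen by list: every called site in the DD DMSO and WT DMSO lists, without duplicate entries and without sites on the mitochondrial chromosome. They came to 3005 positions in all, 1283 in DD DMSO and 2401 in WT DMSO, of 6267 nuclear positions over the 4 site lists of the series. DD cells carried eIF3d (S528D, S529D), in which serine is replaced by aspartate, and both genotypes had received DMSO, the vehicle, for 16 h. HEK293T is an established embryonic kidney cell line. The labels do not say how the altered eIF3d was introduced, whether DD cells keep native eIF3d, or whether a line is 1 clone. The rest of the series holds the same genotypes treated with 600 nM thapsigargin (Tg) for 16 h, which blocks calcium uptake into the endoplasmic reticulum (ER) and so causes ER stress, and a separate assay of RNA bound to eIF3d that is not used here.

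N6-methyladenosine (m6A) is the most common internal modification of messenger RNA. It is placed by a METTL3-METTL14 methyltransferase, removed by demethylases and bound by reader proteins of the YTH family, and in mRNA it typically lies in the DRACH motif and near stop codons. eIF3 is the initiation factor that brings the small ribosomal subunit to mRNA, and eIF3d is its subunit that can bind the 5′ cap. The integrated stress response (ISR) lowers general translation through eIF2 and raises that of ATF4 and its target genes. In m6A-eCLIP, RNA is crosslinked to an anti-m6A antibody, and the sites are read at single-base resolution. Antibodies of this kind also bind m6Am, a related modification of the first transcribed nucleotide, and the lists do not tell the marks apart.

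Each list was made from 4 m6A-eCLIP libraries of its group, 2 inputs and 2 immunoprecipitates, and holds positions with no score, coverage or replicate. The depth behind a site is therefore unknown, a position missing from a list is not shown to be unmethylated, and the number of sites cannot be told apart from the depth of the libraries. Intervals given for shares are 95% Wilson intervals and cover counting error only. Neighbouring sites can share reads, so sites are not independent counts. Of the nuclear sites, 96.8% in DD DMSO and 95.5% in WT DMSO were a single base wide. RNA levels came from 2 RNA-Seq libraries per group, with 7667483 and 9725313 reads recovered in DD DMSO and 7235833 and 4504557 in WT DMSO. The mitochondrial ribosomal RNAs took 42.3% and 25.5% of these in DD DMSO and 43.8% and 34.1% in WT DMSO. Of the HEK293T markers, VIM and KRT18 were above 12 RPKM (read number relative to gene length and library size) in all 4 libraries. KRT8 had 1.36 and 2.37 RPKM in DD DMSO and 2.27 and 6.48 in WT DMSO, and PAX2 reached at most 0.164. NEFL had 58.2 and 6.62 RPKM in DD DMSO and 58.4 and 2.61 in WT DMSO. INA had 17.0 and 2.86 in DD DMSO and 21.7 and 2.33 in WT DMSO. Of the markers chosen as absent from HEK293T, PTPRC, CD3E, HBB, UMOD and NPHS1 were listed at 0. ALB and PECAM1 reached at most 0.061 and 0.04 RPKM. COL1A1, also chosen as absent, was present in replicate 1 of both genotypes, with the values given next. Replicates stood apart by number in both genotypes: NEFM, a neurofilament gene, had 50.9 and 0.515 RPKM in DD DMSO and 62.2 and 0.253 in WT DMSO, and COL1A1, a fibroblast collagen gene, 13.3 and 0.293 in DD DMSO and 18.1 and 0.09 in WT DMSO.

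Sequence could be read at the 143 sites that lie in a RefSeq promoter window (GRCh38.p14; 250 bases before and 50 from an annotated start). All 133 single-base sites among them were adenosines on the strand of the gene. Of these, 112 were in the first 50 nt of the annotated transcript, 64 in the first 10 nt and 32 at the first nucleotide itself, and 24 of those 32 followed a C. The windows below, of 21 nt each, show such start sites in highly expressed genes of each class, with the listed adenosine in capitals. They are given 5′ to 3′ on the strand of the gene, and the first 4 were listed in DD DMSO alone.
RPS4X, chrX:72277238-72277258 (minus): ctccagccccAatttctacgc
SNRPB, chr20:2470777-2470797 (minus): gtggtgctgcAtttccggtag
PCNA, chr20:5119948-5119968 (minus): acgcggcggcAttaaacggtt
COX8A, chr11:63974610-63974630 (plus): cagcgcagccAttttggcttc
The next 4 were listed in both genotypes.
H2AZ1, chr4:99950263-99950283 (minus): gagacagcgcAgtttgaatcg
H2AC20, chr1:149886909-149886929 (plus): ttctctttcaAtcttattttg
PSAT1, chr9:78297117-78297137 (plus): ggccggctgcAgactctcacc
TRAPPC1, chr17:7931936-7931956 (minus): cactcggagcAgttccggtga
The last 4 were listed in WT DMSO alone.
ATF4, chr22:39520553-39520573 (plus): cacggcagccAtttctacttt
CD63, chr12:55728999-55729019 (minus): gggcgcagctAgagagccccg
PARK7, chr1:7961707-7961727 (plus): gcgtgcgttcAttttcagcct
H4C4, chr6:26189100-26189120 (minus): tgccagacgtAttgcgttaca

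Counted from a start in the RefSeq promoter table, from which other annotated starts of a gene can differ, the adenosine is the first nucleotide in RPS4X, PCNA, COX8A, TRAPPC1 and CD63, in H2AC20 and ATF4 it is nucleotide 2, in SNRPB, H2AZ1, PSAT1 and H4C4 nucleotide 3, and in PARK7 nucleotide 7. The genes have unlike roles: RPS4X is a small-subunit ribosomal protein, SNRPB a core spliceosomal protein, PCNA the sliding clamp of DNA replication and COX8A a subunit of cytochrome c oxidase. H2AZ1, H2AC20 and H4C4 code for histones, PSAT1 makes serine, TRAPPC1 acts in vesicle tethering, CD63 is a tetraspanin of late endosomes, and PARK7 codes for DJ-1. ATF4 is the central transcription factor of the ISR. Of the 32 sites at the first nucleotide, 11 were in DD DMSO alone, 4 in both and 17 in WT DMSO alone, so both lists held sites of this kind that the other did not.

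**Figure D1:**
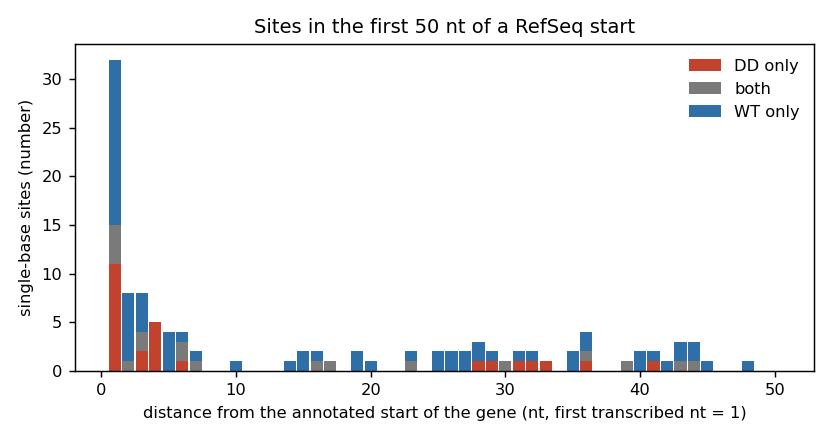
Number of single-base sites (vertical axis) by distance from the annotated RefSeq start in nt (horizontal axis, first transcribed nucleotide at 1), stacked by class: DD only, both genotypes and WT only. The bar at the first nucleotide holds 32 sites, 11 of DD DMSO alone, 4 of both and 17 of WT DMSO alone.

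The DRACH motif (A, G or T; A or G; the methylated A; C; then A, C or T) was present at 0 of 34 single-base sites of DD DMSO alone (95% interval 0 to 10.2%), 1 of 20 in both lists and 9 of 79 of WT DMSO alone (11.4%, 6.11 to 20.3). Over all 133 the share was 7.52% (4.14 to 13.3). In the first 50 nt it was 9 of 112 (8.04%, 4.29 to 14.6), against 7.33% of all adenosines in the first 50 nt of the 35116 promoter windows. The motif was searched on the strand of the gene, and 97.2% of the windows hold it somewhere. These sites are those next to annotated starts, so the share says nothing of sites elsewhere in the transcripts, whose sequence was not read here. The intervals of the DD and WT classes overlap. At the first nucleotide the motif reaches bases before the annotated start, and the 24 such sites that follow a C could not match. Sites at the first nucleotide were 11 of the 34 of DD alone and 17 of the 79 of WT alone. They were 32 of the 112 in the first 50 nt, so neither the classes nor the adenosines of all windows are a like comparison.

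Fewer nuclear sites were listed in DD than in WT cells, at 1283 in DD DMSO and 2401 in WT DMSO, or 1.87 WT sites for each DD site. By exact position and strand, 604 sites were in DD DMSO alone, 679 in both and 1722 in WT DMSO alone. The shared sites made up 52.9% of the DD list (50.2 to 55.6) and 28.3% of the WT list (26.5 to 30.1). The list of DD DMSO was thus not a subset of that of WT DMSO, since 604 of its 1283 positions were absent from the longer list. Some of these lay close to a WT site: 11.8% of the sites of DD alone had a WT site within 10 nt on the same strand, 24.8% within 50 nt and 45.7% within 1000 nt. Among sites of WT alone, 5.34% had a DD site within 10 nt, 13.2% within 50 nt and 29.4% within 1000 nt.

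Protein-coding genes and pseudogenes held most sites of both lists and differed in how far the genotypes overlapped. In protein-coding genes 527 DD and 1158 WT sites were listed, 2.2 WT sites per DD site, and 40.2% of the DD sites (36.1 to 44.5) and 18.3% of the WT sites (16.2 to 20.6) were shared. In pseudogenes 670 DD and 1119 WT sites were listed, 1.67 per DD site, with 65.2% of DD sites (61.5 to 68.7) and 39.1% of WT sites (36.2 to 41.9) shared. The intervals of the 2 kinds of gene do not overlap in either genotype. Pseudogenes thus took 52.2% of the DD list and 46.6% of the WT list, and coding genes 41.1% and 48.2%. Long noncoding RNA genes held 20 DD and 33 WT sites, of which 2 were shared, small RNA genes 10 and 16 with 3 shared, and 56 and 75 sites lay in no annotated gene span.

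**Figure D2:**
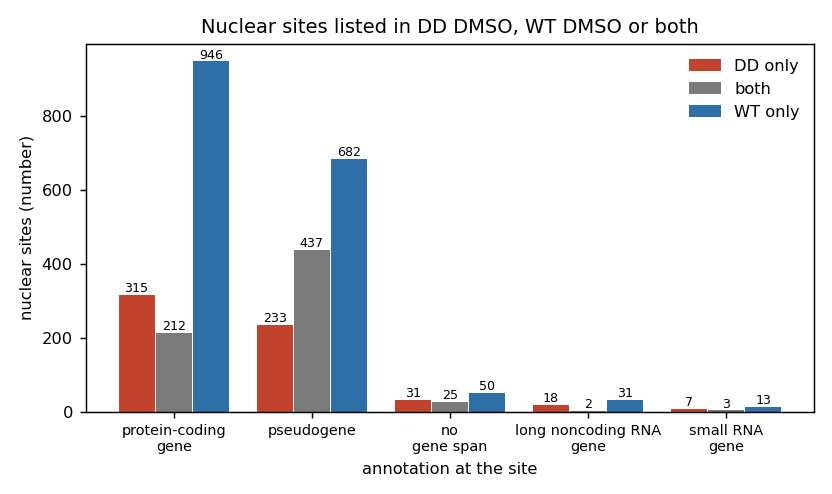
Number of nuclear sites (vertical axis) by annotation at the site (horizontal axis), as bars for sites in DD only, in both and in WT only. In protein-coding genes the 212 shared sites are the lowest bar, while in pseudogenes the 437 shared sites stand above the 233 of DD alone.

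Processed pseudogenes are copies of spliced mRNAs, and their sequence can be nearly that of the parent gene, so a site listed in a pseudogene may come from reads of the parent. How the authors placed such reads is not given in the sources used here, and the assignment of these sites is uncertain. Of the pseudogene sites, 582 in DD DMSO and 968 in WT DMSO lay in 616 pseudogenes named after a coding gene. For those named after a ribosomal protein gene the numbers were 269 in DD and 347 in WT, of which 181 were shared (67.3% of the DD and 52.2% of the WT sites). Most parent genes had no listed site of their own. Of 414 parents with a site in a pseudogene, 130 had a site of their own. RPS18, a small-subunit protein, had 17 DD and 19 WT sites in 4 pseudogenes, 9 of them shared, and none in the gene itself in either genotype. EIF3E, a subunit of eIF3, had none either, whereas its pseudogene EIF3EP1 (chr6:73291949-73293415) held 8 DD and 6 WT sites, 4 of them shared, with RNA-Seq levels of only 1.98 and 0.078 RPKM in DD DMSO and 1.36 and 0 in WT DMSO.

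By gene, 803 genes had a site in DD DMSO and 1438 in WT DMSO: 255 in DD alone, 548 in both and 890 in WT alone. In 86 of the 548 the genotypes had no position in common. Coding genes with a site numbered 373 in DD and 776 in WT, with 152 in DD alone, 221 in both and 555 in WT alone, so that 59.2% of the DD genes and 28.5% of the WT genes were shared. Most genes rested on 1 site, 577 in DD and 1017 in WT, and a gene with 1 site in 1 list is the weakest evidence that these data hold. Genes with at least 3 sites numbered 92 in DD and 188 in WT.

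Ribosomal protein genes stood high in both lists by number of sites. RPL36 (ENSG00000130255.12, chr19:5690295-5691875, plus strand), a large-subunit protein, held 14 DD and 19 WT sites, of which 7 were shared. RPL29 (ENSG00000162244.11, chr3:51993522-51995895, minus strand) held 13 DD and 10 WT sites near the end of the gene, 301 nt from the first to the last, 7 of them shared, 6 in DD alone and 3 in WT alone. RACK1, a scaffold protein of the small subunit, held 8 and 14 (4 shared), RPS19 8 and 12 (1 shared), RPS6, the substrate of S6 kinase, 8 and 11 (2 shared), and RPL13 7 and 9 (2 shared). Elongation factor EEF2 had 7 DD and 9 WT sites, with 2 shared. Among these genes RPL29 was the one with more DD than WT sites.

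RPL8 (chr8:144789769-144792390) showed a split along the gene. All 9 of its DD sites lay at 144789789 to 144789964. Of its 11 WT sites 5 lay in that stretch, 3 of them shared with DD, and the other 6 lay at 144791291 to 144791460, where DD DMSO had none. The DD Tg list had 1 of those 6 positions, 144791360.

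Several genes with many sites had far fewer in DD than in WT. As a family, ribosomal protein genes had 2.17 WT sites per DD site, close to the 2.2 of all coding genes. RPL5 (ENSG00000122406.13, chr1:92831986-92841924), which carries 5S ribosomal RNA into the ribosome, had 0 DD and 9 WT sites. TPT1, a growth-related protein whose mRNA has the same kind of start as ribosomal protein mRNAs, had 3 and 12 with 2 shared, and RPL35 had 0 and 7. RPS4X had 1 DD site, the first nucleotide shown above, and 9 WT sites, 8 of which lay at 72272608 to 72272724 near the end of the gene.

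These genes had sites in the DD Tg list, 8 in RPL5, 10 in RPL35, 20 in TPT1 and 17 in RPS4X, against 1, 1, 2 and 4 in the WT Tg list. Mostly these were other positions: the DD Tg list held 0 of the 9 RPL5 positions of WT alone, 1 of 7 in RPL35, 1 of 10 in TPT1 and 3 of 9 in RPS4X, and the WT Tg list held none of them. For RPL5 the pseudogenes gave another picture than the gene, with 7 DD and 9 WT sites in 7 pseudogenes, 6 of them shared.

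**Figure D3:**
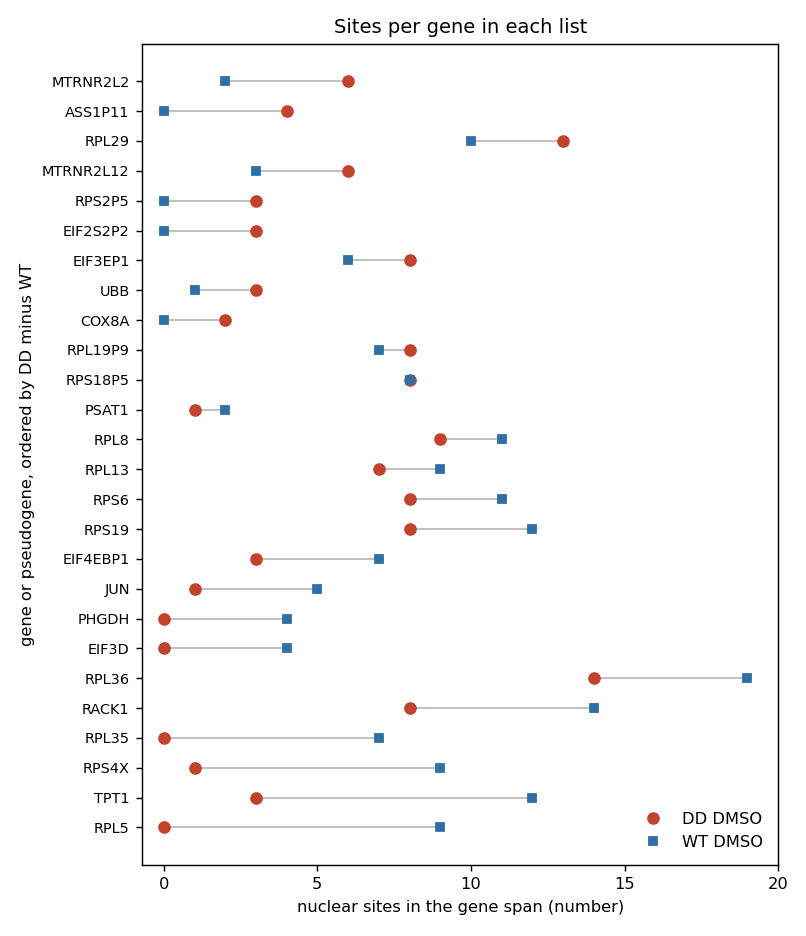
Number of nuclear sites in the gene span (horizontal axis) in DD DMSO (circles) and WT DMSO (squares) for genes with many sites, genes with large differences and selected genes of the eIF3, AP-1, ISR and cap-binding lists, ordered by DD minus WT with the highest difference at the top. RPL5, at the bottom, has 0 DD and 9 WT sites, and MTRNR2L2, at the top, 6 DD and 2 WT sites.

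Gains in DD DMSO were smaller. MTRNR2L2 (chr5:80650420-80651030) and MTRNR2L12 (chr3:96617186-96618223), annotated as pseudogenes and resembling mitochondrial 16S ribosomal RNA, had 6 DD and 2 WT sites with none shared and 6 and 3 with 1 shared. Sites in them and in the mitochondrial RNA itself, whose own sites were left out, cannot be told apart here. ASS1P11, a copy of argininosuccinate synthase, had 4 DD and 0 WT sites, and RPS2P5 and EIF2S2P2 3 and 0 each. Of coding genes beside RPL29, UBB, which codes for ubiquitin, had 3 and 1 (1 shared), and COX8A 2 and 0. These were picked by RNA level among genes with the same difference, such as APRT with 3 and 1 (1 shared) and SRSF5 with 2 and 0. The other pseudogenes among the most listed in DD, RPL19P9 with 8 DD and 7 WT sites and RPS18P5 with 8 and 8, had near-equal counts.

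RNA levels of these genes differed little between genotypes relative to the spread between libraries. RPL5 had 817 and 756 RPKM in DD DMSO and 984 and 414 in WT DMSO, a log2 difference of 0.30 ± 0.85 (SE). Its DD values lay within the range of the WT values. RPL36 had 1021 and 886 RPKM in DD and 813 and 2570 in WT, and TPT1 129 and 58.5 in DD and 236 and 91.3 in WT, so their groups overlapped as well. Compared by replicate number, TPT1 was lower in DD in both, RPL5 only in replicate 1 and RPL36 only in replicate 2. The labels do not say that the number marks a pair, and the fit behind the SE had no term for it.

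EIF3D (ENSG00000100353.17, chr22:36510855-36529166, minus strand), the gene of eIF3d, had 0 DD and 4 WT sites. They lay 77, 720, 794 and 8684 nt before the annotated gene end, at 36510932, 36511575, 36511649 and 36519539. The last of these was also in the WT Tg list, and the DD Tg list had no site in the gene. EIF3D RNA was at 37.5 and 76.6 RPKM in DD DMSO (57.1 ± 27.7, SD, n = 2) and 68.3 and 69.6 in WT DMSO (69.0 ± 0.897), so the DD libraries lay on either side of the WT libraries. The log2 difference was −0.36 ± 0.81 (SE, limma, adjusted p = 1.0). This does not check the genotype labels, because gene totals hold no information on the substituted codons. Of the other 12 eIF3 subunits EIF3G, with 0 DD and 1 WT site, was the only one listed.

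The gene lists below are read against all coding genes, of which 928 of 20056 in the annotation (4.63%) had a site in either list, with 2.2 WT sites per DD site. Listed genes are often more expressed than the average, and RNA level was not matched. Sites in genes of the stress response were fewer in DD than in WT, as were those of the lists as a whole. Of 30 ISR transcription factors and targets 12 had a site, 1 in DD alone, 4 in both and 7 in WT alone, with 5 DD and 17 WT sites of which 3 were shared, or 3.4 WT sites per DD site. PHGDH (chr1:119711934-119744215), the first enzyme of serine synthesis, had 0 DD and 4 WT sites, spread over the gene from 59 nt after its start to 228 nt before its end. ATF4 had 0 DD and 1 WT site, the one near its start shown above. Of the pseudogenes named after it, ATF4P3 had 1 DD and 1 WT site at 1 shared position, and ATF4P4 had 0 and 1. Such sites may come from reads of ATF4 itself. SLC7A5, an amino acid transporter, had 0 and 2. The transcription factor genes CEBPB and CEBPG had 1 site in each genotype, at the same position in CEBPB and not in CEBPG. GDF15, a stress-induced cytokine, had 1 site, at chr19:18388973 (plus strand), which all 4 lists of the series held. SHMT2, a mitochondrial enzyme of serine metabolism, had 1 DD and 0 WT sites.

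ATF4 had 262 and 320 RPKM in DD DMSO and 268 and 258 in WT DMSO, and PHGDH 18.4 and 86.3 in DD and 35.6 and 61.8 in WT. PSAT1, which had 1 DD and 2 WT sites with 1 shared, had 126 and 48.1 RPKM in DD and 132 and 60.6 in WT. In each of these genes the groups overlapped, and for PHGDH the replicates of DD lay further apart than the genotypes. By replicate number, PSAT1 was lower in DD in both, and ATF4 and PHGDH only in replicate 1.

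Of 14 AP-1 genes only JUN, a subunit of that transcription factor, had sites, 1 in DD and 5 in WT. The DD site, at chr1:58783142 (minus strand), was shared and recurred in both Tg lists. The 4 sites of WT alone lay between 58782009 and 58782144, nearer the gene end, and none was in a Tg list. JUN as a whole had 5 sites in the DD Tg list and 2 in the WT Tg list, the shared position included. JUN RNA was at 12.3 and 13.9 RPKM in DD DMSO and 14.5 and 17.7 in WT DMSO, without overlap, but the log2 difference of −0.27 ± 0.69 (SE) did not pass (limma, adjusted p = 1.0).

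Of 19 cap-binding and eIF4 genes 5 had a site, 3 sites in DD and 11 in WT with 1 shared, which is 3.67 WT sites per DD site over few sites. EIF4EBP1, which codes for the 4E-BP1 repressor of cap-dependent translation, had 3 DD and 7 WT sites, all but 2 of them at chr8:38060106-38060219. PABPC1, EIF4G1 and DDX3X, which code for the poly(A)-binding protein, the scaffold of eIF4F and an RNA helicase, had 0 DD and 1 WT site each. Of 23 genes of eIF2 and its regulators and of further initiation factors 4 had a site. EIF2B1, a subunit of the exchange factor eIF2B, had 2 positions that all 4 lists of the series shared. The others were the initiation factor genes EIF1, with 0 DD and 2 WT sites, and EIF1AX, with 1 and 0, and GCN1, an activator of the eIF2 kinase GCN2, with 0 and 1. No gene of an eIF2 subunit, kinase or phosphatase on this list had a site. However, 2 pseudogenes named after the eIF2 subunit gene EIF2S2 held 5 DD and 3 WT sites, 2 of them shared, which may come from reads of the parent. ER chaperones and sensors, 3 of 25 with a site, had 0 DD and 3 WT sites, in CANX, PDIA4 and PDIA6, which code for folding factors.

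Among large families, 60 of 87 cytosolic ribosomal protein genes had a site, 3 in DD alone, 31 in both and 26 in WT alone. Their 116 DD and 252 WT sites had 41 in common. With the pseudogenes named after them, ribosomal protein genes held 385 of the 1283 DD sites (30.0%, 27.6 to 32.6) and 599 of the 2401 WT sites (24.9%, 23.3 to 26.7). The higher DD share lay in the pseudogenes, whose assignment is uncertain, at 21% (18.8 to 23.3) of the DD and 14.5% (13.1 to 15.9) of the WT list. The genes alone held 9.04% (7.59 to 10.7) of the DD and 10.5% (9.33 to 11.8) of the WT list. Histone genes, 24 of 95 with a site, had 20 DD and 39 WT sites with 9 shared. H2BC5 had 2 and 6, all between 24 and 66 nt from its start, and H4C5 1 and 5. Mitochondrial ribosomal protein genes, 14 of 77, were the one list with more DD than WT sites, at 11 DD and 10 WT sites, 2 of them shared, and SR proteins and splicing factors, 10 of 30, had 6 and 7, SRSF2 having the same 1 site in all 4 lists.

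Solute carrier genes had 2 DD and 19 WT sites in 17 of 379 genes (4.49%), and ZNF genes 9 and 25 in 27 of 509 (5.3%). Both shares of genes were near the 4.63% of all coding genes. The WT sites per DD site were 9.5 for solute carriers, over few sites, and 2.78 for ZNF genes, against 2.2 for all coding genes. Heat shock genes had 3 and 7 sites in 4 of 15 genes (2.33 WT sites per DD site), cytoskeletal genes 3 and 9 in 6 of 24 (3.0), and long noncoding RNAs 7 and 11 in 7 of 28. Of 12 genes of m6A writers WTAP, an adaptor of the methyltransferase, had 0 DD and 1 WT site, and the 2 erasers and 15 readers had none. The 32 genes of WNT, Hippo and SMAD signalling had none either, while genes of mRNA decay, of histone lysine methylation and of chromatin remodelling had 0 DD and 2 WT sites each.

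Along genes of known strand, the classes were spread alike. The last 10% of the gene span, introns included, held 28.9% of the sites of DD alone (23.9 to 34.5, n = 277), 33.3% of the shared sites (26.9 to 40.5, n = 180) and 29.2% of the sites of WT alone (26.2 to 32.4, n = 823). The first 10% held 17.7%, 17.8% and 18.5%. All intervals overlapped. Within 10 nt of the start of the span lay 17 sites of DD alone (6.14%, 3.87 to 9.61), 7 shared sites (3.89%, 1.9 to 7.81) and 28 sites of WT alone (3.4%, 2.36 to 4.87), again with overlapping intervals. Exons were not annotated in the reference used, so sites were not placed relative to stop codons or untranslated regions.

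**Figure D4:**
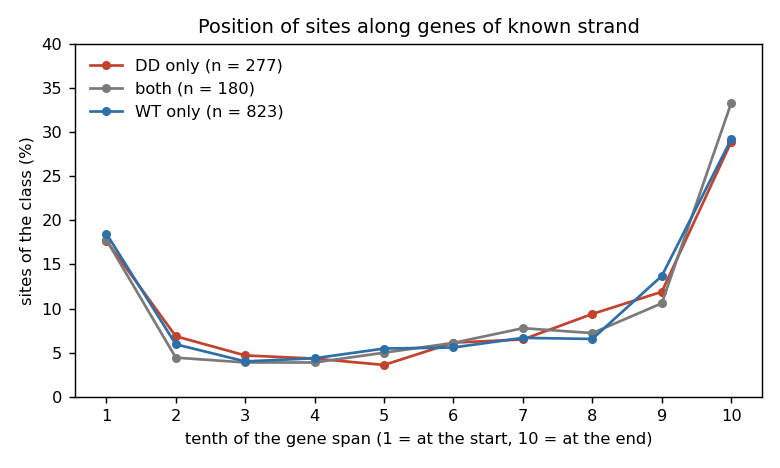
Percent of the sites of a class (vertical axis) along the gene span in 10 equal parts from start to end (horizontal axis), for sites of DD only, both genotypes and WT only in genes of known strand. The 3 lines run close together, highest in the last part at 28.9% for DD only, 33.3% for both and 29.2% for WT only.

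The stressed lists gave a look at the same positions in other libraries. Of the sites shared by the unstressed genotypes, 87.3% (84.6 to 89.6) were in the DD Tg list and 60.2% (56.5 to 63.8) in the WT Tg list, and 8.98% in neither. Of the sites of DD alone, 32.8% (29.2 to 36.6) were in the DD Tg list and 10.3% (8.09 to 12.9) in the WT Tg list. Of the sites of WT alone, 34.4% (32.2 to 36.7) were in the DD Tg list and 10.5% (9.09 to 12) in the WT Tg list. Sites of WT alone thus recurred in the stressed list of the other genotype more often than in that of their own, and at shares close to those of DD alone. The Tg lists differ in length, 4356 sites in DD Tg and 1082 in WT Tg, and their depths are unknown too. Neither Tg list held 64.1% of the sites of DD alone (60.2 to 67.8) and 62.5% of those of WT alone (60.2 to 64.7).

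**Figure D5:**
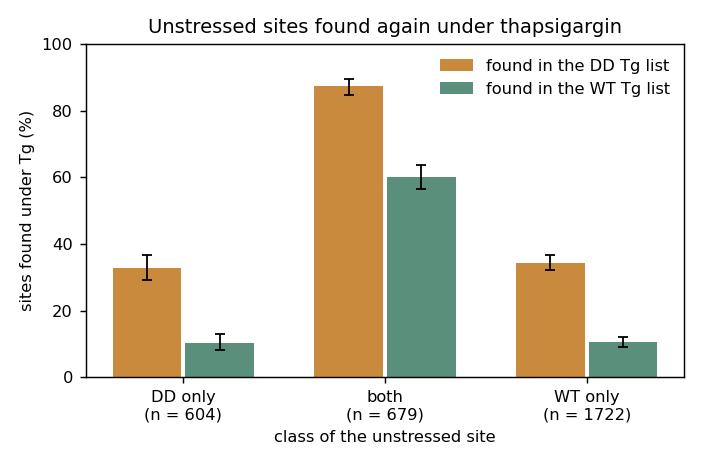
Percent of unstressed sites found at the same position and strand in the DD Tg and the WT Tg list (vertical axis), by class of the unstressed site (horizontal axis), with 95% Wilson intervals as error bars. Shared sites recur at 87.3% and 60.2%, sites of DD only at 32.8% and 10.3%, and sites of WT only at 34.4% and 10.5%.

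Recurrence also differed between pseudogenes and coding genes. In the DD Tg list were 44.0% (40.3 to 47.7) of the sites of WT alone in pseudogenes and 27.7% (24.9 to 30.6) of those in coding genes, and for DD alone 32.6% (26.9 to 38.9) and 31.4% (26.6 to 36.8). In the WT Tg list were 14.2% (11.8 to 17) of the sites of WT alone in pseudogenes and 7.51% (5.99 to 9.36) in coding genes, and for DD alone 14.2% (10.3 to 19.2) and 7.3% (4.91 to 10.7). Counting only sites that also occurred in the Tg list of the same genotype gave 791 sites in DD and 589 in WT. This turned round the order of the genotypes, but the Tg lists used differed in length, at 4356 sites for DD and 1082 for WT. By the same Tg list, WT stayed ahead. Beside the shared sites, the DD Tg list held 198 sites of DD alone and 592 of WT alone. The WT Tg list held 62 and 180.

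Whether the genes with sites also differed in RNA level was tested over all genes. The fit of limma on log2(RPKM + 1) called 0 of 9637 genes as different between unstressed DD and WT cells (0%). An unadjusted p under 0.05 was found for 68 genes. With voom weights on the recovered reads 0 genes were called and 28 had such a p. Of 1087 genes with a site that were tested, 0 were called and 7 had an unadjusted p under 0.05. With 2 libraries per group, and replicates that differed by number, this does not show that levels were equal. Nothing in the labels says that replicates were separate cultures, so p-values measure only the spread between these libraries.

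Coding genes with sites in DD alone had a median log2 difference of 0.15 between DD and WT (128 tested), those with sites in both 0.10 (207 tested) and those with sites in WT alone 0.12 (485 tested), close to the 0.13 of all genes tested. The median level of a gene, in contrast, went with the class. Coding genes with sites in both lists had medians of 20.4 and 22.5 RPKM in the DD DMSO libraries and 20.2 and 22.2 in those of WT DMSO. For genes of DD alone they were 8.45 and 8.19 in DD and 8.01 and 5.93 in WT, and for genes of WT alone 5.77 and 4.81 in DD and 5.86 and 4.13 in WT.

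The share of coding genes with a site was higher at higher RNA levels in both genotypes. It was 1.99% in DD and 5.67% in WT among 5842 genes of 1 to 10 RPKM, 8.87% and 15.4% among 1522 genes of 10 to 100 RPKM, 33.0% (26.6 to 40.1) and 48.9% (41.7 to 56.1) among 182 genes of 100 to 1000 RPKM, and 48.6% (33.4 to 64.1) and 81.1% (65.8 to 90.5) among 37 genes above that. At every level fewer genes were listed in DD than in WT. A low RNA level limits what either list could show, and the part of library depth in these shares was not tested.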

How the data were processed

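The authors deposited 1 m6A list per genotype and treatment, each from 2 input and 2 immunoprecipitated libraries. A deposited list gives only site positions and strand, with no score. For RNA-Seq the authors deposited RPKM for 58721 genes. The submitters' processing notes name the build GRCh38 and the tools cutadapt, STAR, DESeq2 and BWA; the site caller is not given in the sources used here. Per the labels' protocols, m6A-eCLIP used a kit of Eclipse Bio and RNA-Seq polyadenylated RNA.

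Duplicate entries (3 in DD DMSO, 1 in WT DMSO) and mitochondrial sites (513 and 599) were removed, and sites compared by chromosome, position and strand. Each site was given to the smallest RefSeq gene span (GRCh38.p14, 59792 genes) that holds it, on the same strand where the gene's strand was known (27305 genes); 469 sites lay in more than 1 span. No exons were available to these steps. Site genes were matched by symbol to RNA-Seq for 1513 of 1693 (89.4%).

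Genes with a mean of at least 1 RPKM over 8 RNA-Seq libraries were fitted as log2(RPKM + 1) with limma 3.58.1 in R 4.3.3, all groups in 1 fit without a block, Benjamini-Hochberg adjustment over all genes and a threshold of 0.05. The steps were run on simulated data with less spread than these libraries show, which says nothing of the power of the fit. Fold differences on this scale understate those of low genes. Whole read counts, recovered from the steps of the deposited RPKM, were whole within 0.02 for 22280 of 22283 genes. Site lists had no test, being 1 pooled list per side. The members and gene lists were chosen with earlier results of these data known. Genes named are EIF3D, the 10 with most sites per list, the 8 largest and 8 smallest differences, and up to 4 per gene list; ATF4, GDF15, SHMT2, EEF2, RPS18, EIF3E and the genes of the printed start sites were added after their values were seen. Some results under this rule are not reported here.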

Additional observations from a re-analysis of the deposited data

How the results depend on the processing

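Of 160 alternative values, 132 kept their direction and their side of the threshold or stayed within the spread allowed, 24 moved and 4 reversed. Some of the 132 could not change: counting near sites as shared leaves the 1.87 WT sites per DD site as it was. A log2 difference of a named gene counted as kept at any size if its sign held and it did not pass. TPT1, at −0.75, was counted so at −0.07 and −1.43. The 132 are thus no measure of how stable the values are. The share of DD sites that WT DMSO also held was 56.0%, 58.5% and 64.6% when sites within 2, 10 or 50 nt counted as shared, 62.0% with mitochondrial sites kept, 55.9% with runs of sites merged and 48.5% among sites also in the Tg list of the same genotype. The share of WT sites shared was 32.1% and 37.7% within 10 and 50 nt and 37.1% with mitochondrial sites. Among sites also in the Tg list of the same genotype it was 65.2%, and WT had 0.745 sites per DD site, the reverse of 1.87. That filter was not the same on both sides, as the DD Tg list is the longer of the Tg lists. Genes with at least 2 sites in a list numbered 53 in DD alone, 173 in both and 248 in WT alone, and with at least 2 sites over both lists and 1 RPKM 5, 344 and 77. A gene with sites in both lists meets that last site filter by definition. The fall in genes of 1 list alone was thus partly fixed in advance. Within 10 nt, recurrence in the DD Tg list was 44.5% for DD alone, 44.4% for WT alone and 90.3% for shared sites, and in the WT Tg list 15.7% for DD alone and 12.8% for WT alone. An adenosine was at the listed end of 95.8% of sites with sequence and within 2 nt of 100%. Replicates 2 and 1 differed alike in DD and WT (r = 0.743 across 9637 genes), but the labels do not say that the number marks a shared batch; the replicate block called 0 genes (227 at an unadjusted p under 0.05), and with DD Tg replicate 2 left out as well 3, of which 1, S100P (0 DD and 1 WT site), had a site; the cause was not tested. Leaving out a DMSO library moved the median of all genes between −0.03 and 0.33 and kept 0 calls. With 1 DMSO library left out, the log2 difference ranged from −0.86 to 0.15 for EIF3D and from −1.31 to 0.86 for PHGDH. It changed sign for EIF3D and PHGDH without DD DMSO replicate 1, and for PHGDH (0.17) also without WT DMSO replicate 2. Site lists have no depth, so no limit of detection could be given.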
